A study of Mus musculus with 2 samples.

Results

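Cirbp and Rbm3 are the mouse genes of a pair of small RNA-binding proteins known for rising when cells cool. They were taken by symbol from the deposited feature lists and are 2 of the 32285 genes measured. The pair was chosen because Cirbp was higher with Glutoborin in B and CD4 T cells, so the Cirbp values in those classes describe how the genes were picked and support nothing. The data are droplet single-cell RNA counts of CD45+ (leukocyte) cells sorted from the spleens of wild-type mice. All mice had received 10000 iRBCs, a term not spelled out in the labels, into the peritoneum. One group was then given Vehicle and the other Glutoborin, a compound known here by name alone, on days 2 and 4, and spleens were taken on day 5. Each group is 1 library, and the number, age and sex of the mice behind it are not given in the sources used here. A single library per group permits no test between groups and no estimate of variation from mouse to mouse. Each range in parentheses is an exact 95% interval for counting error alone.

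Cirbp and Rbm3 each carry 1 RNA recognition motif followed by a glycine-rich tail, and both bind mRNA and influence splicing, polyadenylation, stability and translation. In cultured cells mild cooling raises both, while heat shock lowers Cirbp. Heat induces a different set, the chaperones under heat shock factor control, among them Hspa1b (an inducible Hsp70) and Hsph1 (Hsp110, the nucleotide exchange factor of Hsp70). CIRBP released from stressed cells is also known as an extracellular damage signal read by TLR4 on myeloid cells.

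By the GENCODE annotation of GRCm38, the assembly also called mm10, Cirbp (ENSMUSG00000045193) lies on the plus strand of chr10:80165985-80172786. Rbm3 (ENSMUSG00000031167) lies on the minus strand of chrX:8138975-8145880. Its first 452 bases are shared with the antisense gene Rbm3os on the opposite strand, which held 30 UMIs in all kept Vehicle cells and 50 in all kept Glutoborin cells. Rbm3 held 31074 and 37990 UMIs in the same cells. Hspa1b (ENSMUSG00000090877) lies on the minus strand of chr17:34956436-34959238 and Hsph1 (ENSMUSG00000029657) on the minus strand of chr5:149614287-149636376. Hspa1b has a near-identical copy, Hspa1a, so the division of reads between this pair is uncertain.

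The promoter sequences of Cirbp and Hspa1b are shown because the results set a gene of the cold response beside one of the heat response, and each motif searched is the one best known for its class. They come from RefSeq on GRCm38.p6. Capitals mark matches, on either strand, to TCCCCGCC, described as a mild-cold response element of the Cirbp promoter, in the Cirbp sequence, and to GAANNTTC, a paired heat shock element, in the Hspa1b sequence. The Cirbp stretch (chr10:80167589-80167777, plus strand, 189 bases) ends where the earliest transcript of the annotation's basic set begins, inside the full annotated span of the gene. The Hspa1b stretch (chr17:34959239-34959488, minus strand, 250 bases) ends at the base before the gene.
Cirbp: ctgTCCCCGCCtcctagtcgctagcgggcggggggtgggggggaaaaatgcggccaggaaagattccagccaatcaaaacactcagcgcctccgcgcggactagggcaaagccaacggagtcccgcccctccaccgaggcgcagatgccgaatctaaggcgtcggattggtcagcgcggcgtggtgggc
Hspa1b: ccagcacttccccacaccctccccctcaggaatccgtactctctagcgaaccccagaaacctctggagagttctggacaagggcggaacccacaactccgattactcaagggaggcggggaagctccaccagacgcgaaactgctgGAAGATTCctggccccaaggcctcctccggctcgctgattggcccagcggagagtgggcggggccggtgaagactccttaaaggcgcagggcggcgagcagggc
Over the 250 bases before a RefSeq start, the cold motif was found in 4.64% and the heat motif in 6.69% of 32851 windows. The Hspa1b stretch also held 1 match to TCCCCGCC, left in lower case. The Cirbp stretch held no GAANNTTC, and neither Hsph1 window held either motif. Cirbp has a second RefSeq window (chr10:80167921-80168220), not shown, and the 250 bases before its start held neither motif. A match or its absence describes letters in a window and says nothing of a factor at work in these cells. Rbm3 was not matched in the promoter table.

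There were 8204 barcodes and 48526451 UMIs (unique molecular identifiers, each marking 1 captured RNA molecule) in the Vehicle library and 9646 barcodes and 56862506 UMIs in the Glutoborin library, with 24 barcodes found in both. After filtering, 6493 Vehicle and 8906 Glutoborin cells remained, with medians of 5688 and 4811 UMIs. Reaching the limit of 10% mitochondrial UMIs removed 18.5% of barcodes in Vehicle and 4.07% in Glutoborin. Cells were grouped by clustering without the 4 genes described here, and clusters were named from marker genes, so that a class name such as B cell stands for B-cell-like cells. Clusters that stayed unnamed held 17.2% of Vehicle and 15.6% of Glutoborin cells. Comparison was limited to the 6 classes that reached 100 cells in both libraries. These were B cells (3042 and 4575 cells in Vehicle and Glutoborin), CD4 T cells (812 and 1129), NK cells (233 and 320), CD8 T cells (557 and 758), monocytes (304 and 238) and regulatory T cells (130 and 151). Levels are UMIs of the gene per 1000000 UMIs of the class (CPM), from summed counts. A ratio is Glutoborin over Vehicle.

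Cirbp was detected in every compared class and was higher in the Glutoborin library in all 6. In B cells it stood at 106 CPM (100.8 to 111, from 1670 UMIs) in Vehicle and 145 (140 to 151, from 3110 UMIs) in Glutoborin. In CD4 T cells the levels were 96.0 (87.4 to 105) and 135 (126 to 145). In CD8 T cells they were 70.1 (62.5 to 78.4) and 105 (96.3 to 114). These 3 large lymphocyte classes gave intervals that did not overlap between the libraries. Of them, B and CD4 T cells are the classes that chose the gene. The share of all genes with intervals apart in this way is not given here. In NK cells, the cytotoxic innate lymphocytes, the levels were 59.9 (49.98 to 71.3) and 107 (93.6 to 121), again without overlap. Regulatory T cells, which restrain other T cells, had 81.4 (63.1 to 103) and 119 (96.7 to 146), from 67 and 96 UMIs. Monocytes, the blood-derived phagocytes, had the lowest level in both libraries, 41.6 (34.9 to 49.2) and 57.4 (48.4 to 67.6), from 136 and 143 UMIs. The intervals of the latter pair of classes overlap between the libraries.

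**Figure D1:**
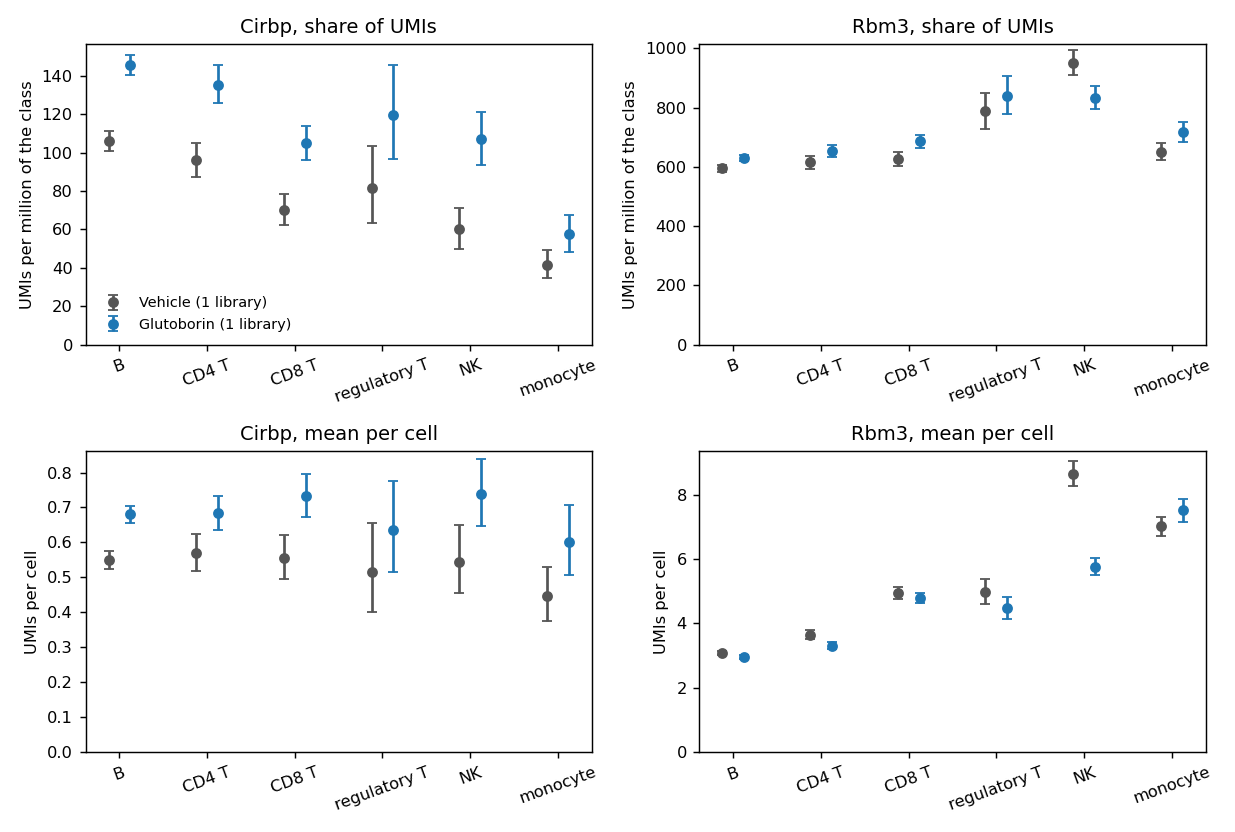
Levels of Cirbp (left) and Rbm3 (right) in 6 cell classes of the Vehicle (grey) and Glutoborin (blue) libraries, as UMIs per 1000000 of the class (top) and as mean UMIs per cell (bottom); points are values of 1 library and bars exact Poisson 95% intervals. Cirbp lies higher in Glutoborin in every class on both scales, whereas Rbm3 in B cells and the 3 T cell classes lies slightly higher per 1000000 UMIs and slightly lower per cell.

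The order of the classes was much the same in both libraries. Cirbp was highest in B cells, then CD4 T cells, then regulatory T cells, with NK and CD8 T cells next and monocytes last. B cells exceeded monocytes by 2.54-fold in either library. Of the steps between neighbours in this order, only the one above monocytes was larger than counting error: NK cells exceeded them by 1.44-fold in Vehicle (log2 0.53, interval 0.17 to 0.89) and CD8 T cells by 1.83-fold in Glutoborin (log2 0.87, 0.60 to 1.14). Every other neighbouring pair had an interval that held 0.

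The order is one of shares of a cell's RNA. Counted per cell, Cirbp was nearly level across the Vehicle classes, from 0.447 UMIs in monocytes to 0.569 in CD4 T cells, with 0.549 in B cells and 0.545 in NK cells. Glutoborin cells had 0.601 in monocytes, 0.636 in regulatory T cells, 0.680 in B cells, 0.684 in CD4 T cells, 0.732 in CD8 T cells and 0.738 in NK cells. The mean depth of the classes spanned 5190 UMIs per cell in Vehicle B cells to 10755 in Vehicle monocytes.

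As log2 ratios of CPM, Cirbp was higher with Glutoborin by 0.46 in B cells (0.37 to 0.55), 0.50 in CD4 T cells (0.33 to 0.67), 0.58 in CD8 T cells (0.38 to 0.79), 0.55 in regulatory T cells (0.09 to 1.02), 0.83 in NK cells (0.52 to 1.16) and 0.46 in monocytes (0.12 to 0.81). These are 1.38-fold in B cells and monocytes, 1.41-fold in CD4, 1.49-fold in CD8 and 1.47-fold in regulatory T cells, and 1.78-fold in NK cells. The NK value was therefore the only one past 1.5-fold, so that 1 of the 2 genes was higher by that size in NK cells and 0 of 2 in the other 5 classes; none was lower by it. Over all genes measured, 6.6% of 7042 were at least 1.5-fold higher in NK cells, 2.53% in B cells, 2.45% in CD4 T cells, 1.56% in CD8 T cells, 2.65% in regulatory T cells and 3.52% in monocytes. At least 1.5-fold lower were 6.99% in NK cells, 3.53% in B cells, 2.69% in CD4 T cells, 3.04% in CD8 T cells, 5.4% in regulatory T cells and 6.29% in monocytes. Asking instead that the whole interval lie beyond 1.2-fold, Cirbp passed and Rbm3 did not in B cells, CD4 T cells, CD8 T cells and NK cells, and neither passed in regulatory T cells or monocytes. Of all measured genes, 1.43% passed that limit upward in B cells, 0.441% in CD4 T cells, 0.228% in CD8 T cells, 0.268% in regulatory T cells, 3.24% in NK cells and 1.57% in monocytes. Downward, where neither gene passed, the shares were 3.67%, 1.9%, 1.75%, 1.36%, 4.49% and 4.27% in the same order. Nothing is read from the B and CD4 T cell counts, since those values chose the gene. Among genes with at least 50 CPM in the higher library, Cirbp ranked 4th of 2517 by its ratio in CD8 T cells, 34th of 3155 in NK cells, 78th of 2957 in regulatory T cells and 85th of 3239 in monocytes. It ranked 11th of 2740 in B cells and 5th of 2630 in CD4 T cells.

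Mean depth per cell was lower in the Glutoborin library in all 6 classes, by 0.04 (log2) in monocytes to 0.40 in NK cells, so the choice of denominator matters. Per cell, the Cirbp ratio stayed above 1 in every class: 1.24-fold in B cells (1.17 to 1.31), 1.202 in CD4 T cells (1.07 to 1.35), 1.32 in CD8 T cells (1.146 to 1.52), 1.23 in regulatory T cells (0.894 to 1.71), 1.35 in NK cells (1.09 to 1.69) and 1.34 in monocytes (1.05 to 1.71). The interval of regulatory T cells held 1. The difference in NK cells shrank the most, from 1.78-fold on the CPM scale to 1.35-fold per cell.

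**Figure D2:**
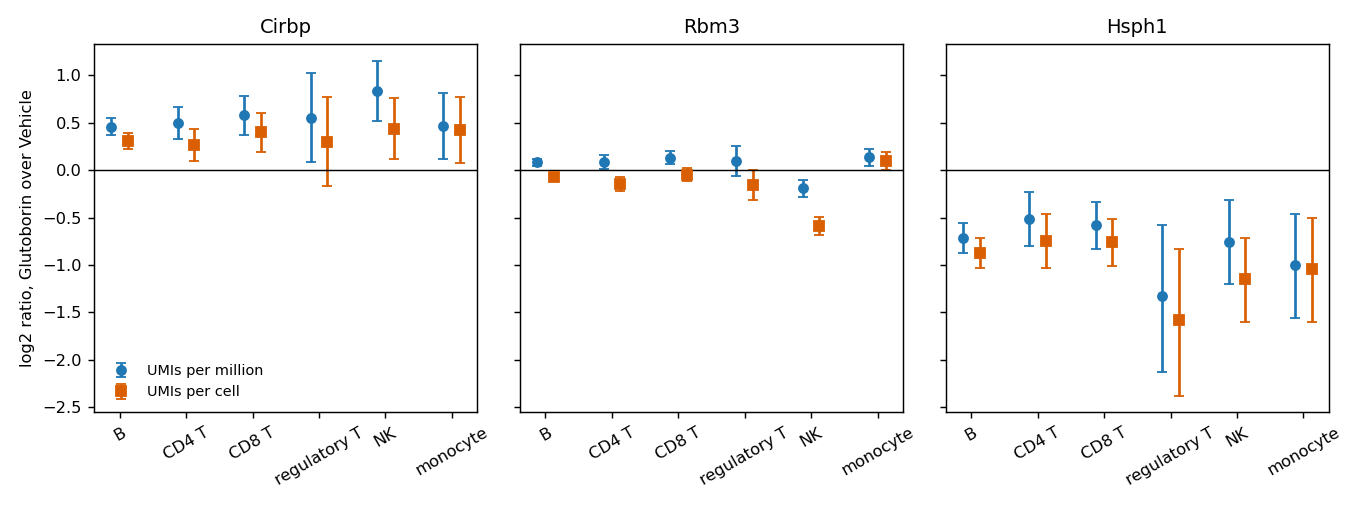
Log2 ratio of Glutoborin over Vehicle for Cirbp, Rbm3 and Hsph1 in 6 classes, from UMIs per 1000000 (blue circles) and UMIs per cell (orange squares), with exact 95% intervals and a line at no difference. Cirbp lies above the line and Hsph1 below it in all 6 classes on both scales; Rbm3 in B cells and the 3 T cell classes changes side with the scale.

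Shares of cells with a Cirbp UMI were also compared at a fixed depth. Each cell was thinned to 2000 UMIs, which left out at most 53 cells of a class and library. In B cells the share was 19.7% (18.3 to 21.2%) in Vehicle and 25.9% (24.6 to 27.2%) with Glutoborin, and 40.4% and 47.3% before thinning. For CD4 T cells it was 16.5% (14.0029 to 19.2%) and 23.9% (21.4 to 26.5%), and for NK cells 10.1% (6.50 to 14.8%) and 23.8% (19.2 to 28.8%). The intervals of the 2 libraries were apart in these 3 classes and overlapped in the other 3. Of the former, B and CD4 T cells are the classes that chose the gene, and the share of all genes with such intervals apart is not given here. CD8 T cells had 13.9% (11.1 to 17.03%) and 19.3% (16.5 to 22.3%), regulatory T cells 15.9% (9.97 to 23.4%) and 24.2% (17.5 to 31.8%), and monocytes 9.38% (6.27 to 13.3%) and 8.72% (5.33 to 13.3%). At 1000 UMIs per cell the intervals were apart in B cells and NK cells. Of the other 4 classes, CD4 and CD8 T cells kept the higher share in Glutoborin, regulatory T cells turned around to 11.5% and 8%, and monocytes turned to 4.70% and 6.90%, so that the shares of the latter pair carry no direction. In monocytes the log2 ratio of the counts thinned to 2000 UMIs was 0.0538 in place of 0.46. No class known to lack Cirbp was at hand to set a background of free RNA. The share with an Rbm3 UMI at 2000 UMIs per cell was 66.6% and 69.2% in B cells, 67.2% and 76.5% in CD8 T cells and 78.5% and 77.8% in NK cells. The lowest Cirbp share before thinning was 4.35% of 23 Vehicle neutrophils, with 21.3% of 61 Glutoborin neutrophils, at medians of 2758 and 3255 UMIs against 4562.5 and 3978 in B cells. Cirbp counts were spread over many cells: the 10 richest cells held 2.93% of the UMIs of Vehicle B cells and at most 32.8% in any compared class, the latter in Vehicle regulatory T cells.

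Rbm3 differed far less between the libraries than Cirbp, and its direction depended on the scale. Its level was 595 CPM (583 to 607) in Vehicle and 631 (620 to 641) in Glutoborin B cells. It was 615 (593 to 638) and 654 (633 to 675) in CD4 T cells and 626 (602 to 649) and 686 (664 to 708) in CD8 T cells. Regulatory T cells had 787 (728 to 850) and 841 (778 to 906), and monocytes 651 (624 to 680) and 717 (684 to 751). NK cells went the other way, with 952 (911 to 994) in Vehicle and 833 (795 to 872) in Glutoborin. The log2 ratios were 0.08 in B cells (0.05 to 0.12), 0.09 in CD4 T cells (0.02 to 0.16), 0.13 in CD8 T cells (0.06 to 0.20), 0.09 in regulatory T cells (-0.06 to 0.25), 0.14 in monocytes (0.05 to 0.23) and -0.19 in NK cells (-0.28 to -0.10).

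Per cell, Rbm3 was lower with Glutoborin in all 5 lymphocyte classes and higher in monocytes. The cell means were 3.09 and 2.95 UMIs in B cells, 3.65 and 3.30 in CD4 T cells, 4.95 and 4.79 in CD8 T cells, 4.98 and 4.48 in regulatory T cells, 8.65 and 5.75 in NK cells, and 7.01 and 7.504 in monocytes. As folds these were 0.955 in B cells (0.930 to 0.980), 0.905 in CD4 T cells (0.862 to 0.9497), 0.968 in CD8 T cells (0.921 to 1.02), 0.898 in regulatory T cells (0.805 to 1.002), 0.665 in NK cells (0.624 to 0.708) and 1.07 in monocytes (1.01 to 1.14). No direction of Rbm3 in B cells or in the 3 T cell classes therefore held under both scalings, while its NK value was lower and its monocyte value higher under both. Thinning every cell to 2000 UMIs brought the NK log2 ratio to -0.0602 and turned the monocyte one to -0.0432.

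Rbm3 also ordered the classes differently from Cirbp. NK cells and regulatory T cells were highest, monocytes next, then CD8 and CD4 T cells, and B cells lowest, in both libraries apart from an exchange of the first pair. In Vehicle, NK cells exceeded regulatory T cells by 1.21-fold (log2 0.27, 0.14 to 0.40), and these exceeded monocytes by 1.21-fold (0.27, 0.14 to 0.40). From monocytes down to B cells no neighbouring pair in Vehicle differed beyond counting error. In Glutoborin, regulatory T cells and NK cells were alike within error (log2 0.01, -0.12 to 0.14), and NK cells exceeded monocytes by 1.16-fold (0.22, 0.12 to 0.31). The Glutoborin CD8 T cells also exceeded the CD4 T cells by 1.05-fold (0.07, 0.003 to 0.14). From highest to lowest class the span was 1.60-fold in Vehicle and 1.33-fold in Glutoborin.

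All 7 B cell clusters held cells of both libraries, but 3 of them in unequal shares. Of Vehicle and Glutoborin B cells, cluster 1 (led by Cd55, Fcer2a and Ighd) made up 13.9% and 27.4%, cluster 2 (Ccr6, Fcer2a, Vpreb3) 12.3% and 27.2%, and cluster 4 (Serpina3f, Serpina3g, Socs1, Irgm1) 35.6% and 8.13%. Cirbp was higher in the Glutoborin library within each of the 3: 138 and 186 CPM in cluster 1, 125 and 156 in cluster 2, and 103 and 136 in cluster 4. Over all 6 classes, 19 clusters had at least 50 cells in each library, and Cirbp was higher with Glutoborin in 19 of 19, with the interval above 0 in 14. Of these clusters 7 were of B and 4 of CD4 T cells, with 5 and 3 of the intervals above 0. Both classes chose the gene, so their part of the count supports nothing. In the other classes the interval was above 0 in 3 of 3 CD8 T and 1 of 2 regulatory T cell clusters. It was above 0 in 1 of 1 NK cell and 1 of 2 monocyte clusters. The same count over all genes is not given here. Among B cell clusters the log2 ratio of Cirbp ran from 0.16 to 0.51 and among CD4 T clusters from 0.34 to 0.60. Rbm3 was higher in CPM in 16 of the 19, with the interval above 0 in 7 and below 0 in 1.

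Of 37 clusters with at least 20 cells in each library, named or not, Cirbp was higher with Glutoborin in 33, with the interval above 0 in 19 and below 0 in 1. Those 37 again include the B and CD4 T cell clusters, whose part of the count supports nothing. The same counts over all 37 clusters are not given here for other genes. The exceptions were mature dendritic cells (cluster 23, led by Fscn1, with 181 and 84.9 CPM), the unnamed cluster 22 (led by Pclaf, Mki67 and Top2a, with 81.4 and 61.2) and clusters 24 and 25, both led by the red pulp macrophage genes C1qa, Hmox1 and Vcam1. These exceptions were named after their values were seen. The other cycling cluster, T16, was higher with Glutoborin (53.8 and 75.4 CPM, log2 0.49, -0.12 to 1.09). Among the exceptions, only the interval of mature dendritic cells excluded 0 (log2 -1.10, -1.96 to -0.26), from 32 and 21 UMIs.

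**Figure D3:**
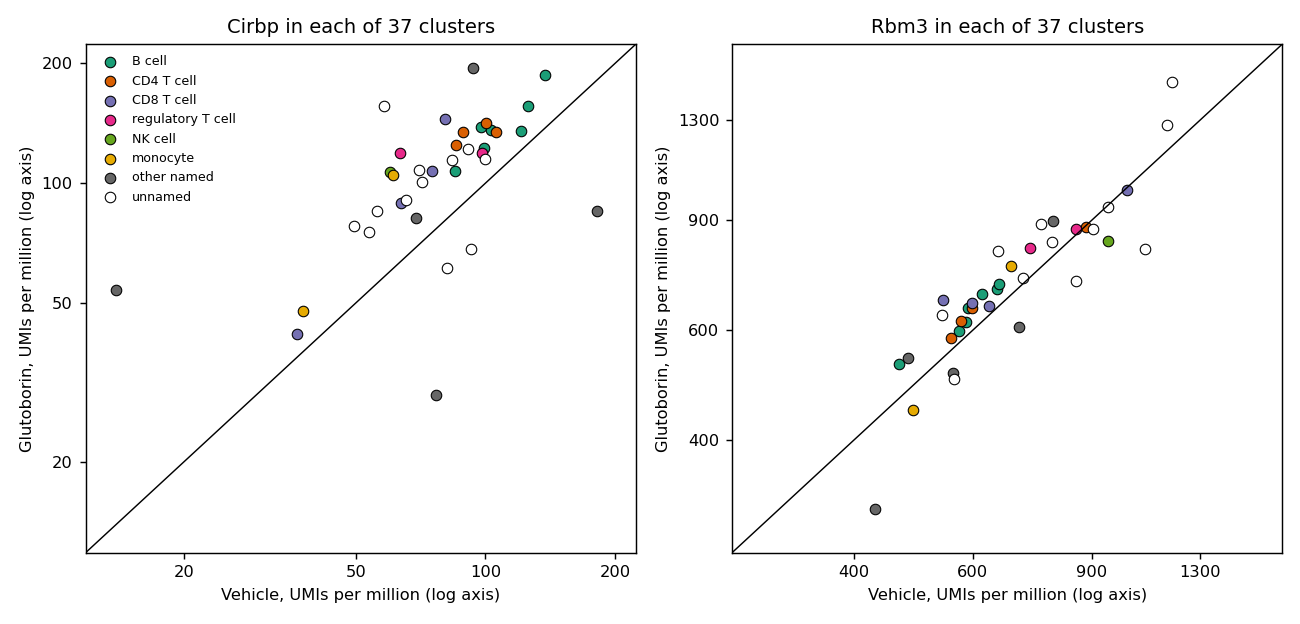
Level of Cirbp (left) and Rbm3 (right) in the Vehicle library (horizontal, log axis) against the Glutoborin library (vertical, log axis), in UMIs per 1000000, for 37 clusters coloured by class, with a line of equality. Cirbp lies above the line in 33 clusters and Rbm3 in 25.

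Among the 7 B cell clusters, with both libraries summed, Cirbp was highest in cluster 1 (173 CPM) and cluster 2 (149), whose leading genes include the follicular marker Fcer2a. Cluster 10, also with Fcer2a among its leading genes, had 113 CPM, less than clusters 8 (130) and 5 (120), whose leading genes lack it. Cirbp was lowest in cluster 6 (97.7 CPM), whose leading genes include the marginal zone genes Cr2, S1pr3 and Cd1d1. Since the clusters draw unequally on the libraries, the order was read in each: clusters 1 and 2 were highest and cluster 6 lowest in Vehicle (138, 125 and 84.9 CPM) and in Glutoborin (186, 156 and 107). This order is one of shares of a cell's RNA. Median depth was 3614 UMIs in cluster 1, 3874.5 in cluster 2 and 7150 in cluster 6. Per cell, cluster 6 did not lie below cluster 1. It held 259 Cirbp UMIs in 382 Vehicle cells, against 243 in 424, and 430 in 536 Glutoborin cells, against 874 in 1254. The unnamed cluster 7, led by Egr3, Cd83, Srm and Ncl, genes of activated and growing cells, had 69.8 CPM. Rbm3 had 512 CPM in cluster 1, 610 in cluster 2, 588 in cluster 10, 678 in cluster 6 and 948 in cluster 7. The clusters named here were picked after their values were seen.

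Rbm3 was highest of all in cycling cells. The unnamed clusters with Mki67 and Top2a among their leading genes, cluster 22 and, from the separately clustered T cells, cluster T16, had 1235 and 1309 CPM, the top pair of the 37. They were also the top pair within each library, with 1160 and 1181 CPM in Vehicle and 1276 and 1496 in Glutoborin. CD8 T cluster T15, led by Tnfrsf9, Crtam and Srm, had 1012 CPM of Rbm3 in Vehicle and 1004 in Glutoborin, beside 36.5 and 41.8 CPM of Cirbp. Among the 37 clusters, neutrophils (cluster 21) had the least Rbm3 in either library, 430 and 311 CPM. Plasma cells, a smaller class outside these clusters, had 342 CPM in Vehicle, from 66 UMIs. Over the 37 clusters the log2 level of Rbm3 correlated with the summed level of 5 cycling markers (Mki67, Top2a, Birc5, Stmn1, Cdk1) at r = 0.73, and Cirbp at r = -0.21. The correlation with the median depth of the clusters was 0.50 for Rbm3 and -0.12 for Cirbp. These describe clusters of 2 libraries that share depth and total RNA, and are not tests.

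**Figure D4:**
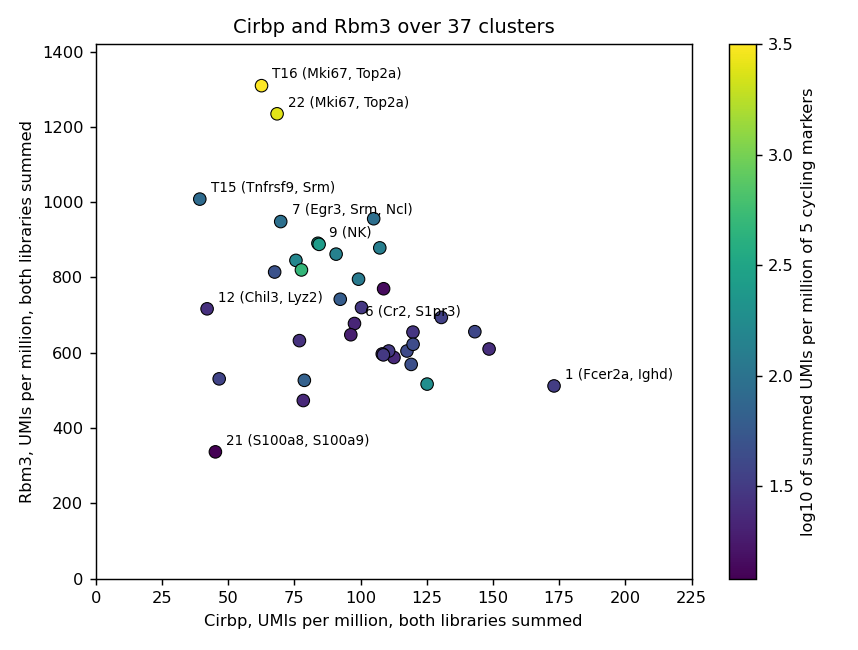
Level of Cirbp (horizontal) against Rbm3 (vertical) in UMIs per 1000000 over 37 clusters, both libraries summed, coloured by the log10 summed level of 5 cycling markers; selected clusters carry their number and leading genes. The cycling clusters 22 and T16 lie at the top with 1235 and 1309 for Rbm3, and the Fcer2a-led cluster 1 lies farthest right with 173 for Cirbp.

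The levels of Cirbp and Rbm3 did not rise together. Over the 12 points of 6 classes in 2 libraries their log2 levels correlated at r = -0.15, and over the 37 clusters at r = -0.20 (Spearman rho = -0.39). Over the 6 classes alone the levels had r = -0.32 (rho = -0.71) in Vehicle and -0.21 (-0.49) in Glutoborin. Their log2 ratios had r = -0.91 but rho = -0.20. NK cells had the highest ratio for Cirbp and the only one below 0 for Rbm3. These describe 6 classes that share 2 libraries. At 2000 UMIs per cell, Cirbp was found in 19.7% of Vehicle B cells with an Rbm3 UMI and in 19.9% of those without one. In Glutoborin B cells these shares were 25.5% and 26.8%. The binomial intervals of cells with and without Rbm3 overlapped in all 12 pairs of class and library.

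The heat shock chaperones lay on the other side of the comparison. Hsph1 was lower with Glutoborin in all 6 classes. Its level was 45.6 CPM (42.3 to 49.1) in Vehicle and 27.7 (25.5 to 30.02) in Glutoborin B cells, 48.6 and 34.02 in CD4 T cells, 69.7 and 46.6 in CD8 T cells, 65.6 and 26.1 in regulatory T cells, 54.3 and 32.1 in NK cells, and 32.1 and 16.1 in monocytes. The log2 ratios were -0.72 in B cells (-0.88 to -0.56), -0.51 in CD4 T cells (-0.80 to -0.23), -0.58 in CD8 T cells (-0.83 to -0.33), -1.33 in regulatory T cells (-2.13 to -0.58), -0.76 in NK cells (-1.20 to -0.32) and -1.001 in monocytes (-1.56 to -0.46). Per cell, Hsph1 was lower in all 6 as well. Within the 19 clusters it was lower in 18, with the interval below 0 in 12, and CD4 T cluster T8 was the exception (35.4 and 49.6 CPM, log2 0.49, -0.37 to 1.38). Among B cell clusters the log2 ratio ran from -1.01 to -0.32, with the interval below 0 in 3 of 7. In B clusters 4 and 1 it was -0.32 (-0.74 to 0.07) and -0.43 (-0.87 to 0.02), against -0.72 for the class.

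Among the compared classes Hspa1b was highest in monocytes. Vehicle monocytes held 248 UMIs (75.9 CPM, 66.7 to 85.9) and Glutoborin monocytes 26 (10.4, 6.82 to 15.3), a log2 ratio of -2.86 (-3.50 to -2.28). A few cells held much of it: the 10 richest monocytes carried 57.3% of its UMIs in Vehicle and 76.9% in Glutoborin. Type 2 dendritic cells, not among these classes, had 171 and 22.5 CPM (166 and 24 UMIs), while neutrophils had no Hspa1b UMI and red pulp macrophages 1. The copy Hspa1a had 66.4 and 16.5 CPM in monocytes. In B cells Hspa1b was near its floor, with 56 UMIs (3.55 CPM) in Vehicle and 33 (1.54) in Glutoborin, a log2 ratio of -1.20 (-1.87 to -0.55). Within the B cell clusters it ranged from -2.11 to 1.61: it was -0.13 (-1.46 to 1.03) in B cluster 4, which held 30 of the 56 Vehicle UMIs, and -0.09 (-1.88 to 2.04) in cluster 1, and only cluster 2 of the 7 had an interval below 0. CD4 T cells had 7 and 5 UMIs and CD8 T cells 7 and 3, with intervals that held 0 (-2.73 to 1.14 and -4.07 to 0.64). Regulatory T cells had 16 Vehicle UMIs, 7 of them in 1 cell, and none in Glutoborin, for which the exact interval allows a ratio of up to 0.265. NK cells had 6 and 0, which allows a ratio of up to 0.814.

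Cirbp was thus higher and Hsph1 lower in each of the 6 classes, but the sizes did not go together. Over the 6 classes the log2 ratios of Cirbp and Hsph1 correlated at r = 0.07 (rho = -0.03). Their log2 levels correlated at r = 0.44 in Vehicle and 0.63 in Glutoborin, with rho of 0.03 and 0.14. Vehicle levels of Cirbp and Hspa1b had r = -0.63 (rho = -0.37), with monocytes lowest in Cirbp and highest in Hspa1b. No such value was formed for Hspa1b in Glutoborin, where 2 classes were at 0. Rbm3 and Hsph1 ratios had r = -0.10. These are descriptions over 6 classes that share the same 2 libraries.

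Within a class, the separate intervals of the Cirbp share in cells with and without Hsph1 overlapped. No interval was formed for the difference of the shares, and overlap does not show them to be equal. At 2000 UMIs per cell, 17.3% (13.1 to 22.3%) of the 277 Vehicle B cells with an Hsph1 UMI had Cirbp, against 19.99% (18.5 to 21.5%) of the 2716 without. In Glutoborin B cells the shares were 24.2% (18.9 to 30.1%) of 240 and 26.0% (24.7 to 27.4%) of 4282. In Glutoborin CD8 T cells they were 12.1% (4.99 to 23.3%) of 58 and 19.9% (16.96 to 23.01%) of 700. The share was lower among cells with Hsph1 in 9 of the 12 pairs of class and library, and the intervals overlapped in all 12. For Rbm3 it was lower in 7 of 12, again with overlap in all. Cells with Hspa1b were few: 23 Vehicle monocytes, 16 Vehicle B cells and 8 Glutoborin B cells at that depth. Of these monocytes 8.70% (1.07 to 28.04%) had Cirbp, against 9.43% (6.20 to 13.6%) of the 265 without Hspa1b. For Rbm3 the shares were 73.9% (51.6 to 89.8%) and 68.3% (62.3 to 73.9%). Cirbp was found in 31.25% and 19.7% of Vehicle B cells with and without Hspa1b, and in 25% and 25.9% of Glutoborin B cells. The intervals overlapped in each comparison and were wide for the cells with Hspa1b.

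Related RNA-binding proteins were compared by the same 1.5-fold size. Of 15 related RNA-recognition-motif and hnRNP proteins, which include the SR splicing factors and the X-linked hnRNP G gene Rbmx, none was 1.5-fold higher or lower in B cells, CD4 or CD8 T cells, or monocytes. The same held for the 14 measured in regulatory T cells, and 2 of 15 were lower in NK cells, Rbmxl1 (96.8 and 58.8 CPM) and Srsf2 (394 and 244), named after their values were seen. That is beside 6.99% of all genes lower by this size in NK cells, where the list median was -0.21 against 0.02 over all genes and 5 of 15 had the whole interval beyond 1.2-fold lower, beside 4.49% of all genes. The list median was -0.09 in B cells against 0.02 over all genes measured there. Rbmx had 24.8 and 29.1 CPM in B cells (log2 0.23, 0.05 to 0.42). None of 9 kinases and import or modification factors that act on such proteins passed 1.5-fold in B, CD4 T, CD8 T or NK cells or monocytes, and 2 were lower in regulatory T cells, Clk2 (34 and 19 UMIs) and Clk4 (56 and 32), likewise named afterwards and beside 5.4% of all genes. Of 19 circadian clock genes, a system that drives daily Cirbp rhythms through body temperature, 13 were measured in B cells with none past 1.5-fold. In CD4 T cells 1 of 10 was, Per1, with 22.2 and 14.4 CPM, beside 2.69% of all genes lower by this size. In CD8 T cells 1 of 8 clock genes was higher, beside 1.56% of all genes. Lower were 1 of 6 in monocytes, beside 6.29%, and 1 of 2 in regulatory T cells, beside 5.4%. None of 5 passed in NK cells.

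The median of the chaperone list lay below that of all genes in all 6 classes. Its median log2 ratio was -0.30 over 20 measured genes in B cells, -0.22 over 19 in CD4 T cells, -0.26 over 19 in CD8 T cells, -0.30 over 16 in regulatory T cells, -0.55 over 18 in NK cells and -0.33 over 22 in monocytes, where the medians over all genes lay between -0.06 and 0.02. At least 1.5-fold lower were 3 of 20 in B cells, Hspa1b, Hsph1 and the constitutive Hsp70 gene Hspa8 (1269 and 841 CPM), 9 of 18 in NK cells, 8 of 22 in monocytes and 1 of 16 in regulatory T cells, Hsph1. None of 19 was in CD4 T cells and none of 19 in CD8 T cells. In monocytes 1 of 22 was higher, beside 3.52% of all genes. This was Hsf2 (35 and 43 UMIs, 10.7 and 17.3 CPM), named after its values were seen. The share of all genes that low was 3.53% in B cells, 6.99% in NK cells, 6.29% in monocytes, 5.4% in regulatory T cells, 2.69% in CD4 T cells and 3.04% in CD8 T cells. With the whole interval beyond 1.2-fold lower were 7 of 20 chaperones in B cells, 3 of 19 in CD4 and 3 of 19 in CD8 T cells. By that limit there were 1 of 16 in regulatory T cells, 9 of 18 in NK cells and 7 of 22 in monocytes. The shares of all genes were 3.67%, 1.9%, 1.75%, 1.36%, 4.49% and 4.27% in the same order. Immediate early genes, which respond within minutes to handling and dissociation, had 3 of 18 lower in B cells: Jun (297 and 169 CPM), Egr1 (85.8 and 55.2) and Atf3 (8.36 and 2.71). Egr1 was also lower in CD4 T cells (49.6 and 32.97). The list went other ways elsewhere: its median was 0.18 in NK cells, with 1 of 16 higher and none lower. The higher one was Nr4a1 (57.6 and 99.6 CPM), beside 6.6% of all genes higher by this size in NK cells. In CD8 T cells Egr3 was higher (7.94 and 13.4) and Fosb (45.8 and 30.02) and Klf4 (20.9 and 7.93) lower, out of 17. Of all genes there, 1.56% were higher and 3.04% lower by this size. None of 14 passed in regulatory T cells, and 1 of 18 was lower in monocytes, Egr1 (41.9 and 25.3 CPM). These genes were named after their values were seen. None of the 6 hypoxia genes measured in B cells passed 1.5-fold, nor any of 4 in CD4 T, CD8 T or NK cells or of 5 in monocytes. In regulatory T cells 1 of 3 was lower, beside 5.4% of all genes. The hypoxia median was -0.41 in NK cells, against 0.02 over all genes, and -0.35 in regulatory T cells, against -0.05. Of the list of TLR4, its partners and inflammasome outputs, 1 of the 2 measured in CD4 T cells was higher. This was Tnf (4.78 and 9.47 CPM, 23 and 54 UMIs), beside 2.45% of all genes. Of the 8 measured in monocytes 2 were lower, Tnf (17.7 and 7.22 CPM) and Il1b (88.1 and 36.5), beside 6.29%. The monocyte pair was named after its values were seen. None of 4 passed in B cells or of 1 in NK cells, and none of the list was measured in CD8 or regulatory T cells.

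Type I interferon genes differed more between the libraries than any other list here by their median in B cells. All 10 listed were at least 1.5-fold lower with Glutoborin in B cells (median log2 -2.25) and in monocytes (-1.35), and 9 of 10 in CD4 T cells (-1.04). So were 9 of 10 in CD8 T cells (-1.04), 7 of 9 measured in NK cells (-1.26) and 4 of 8 in regulatory T cells (-0.61). Of all genes, 3.53% were that low in B cells, 6.29% in monocytes and 2.69% in CD4 T cells. The shares were 3.04% in CD8 T cells, 6.99% in NK cells and 5.4% in regulatory T cells. The genes with the outermost bounds were Ifit1 (54.7 and 7.91 CPM), Ifit3 (163 and 25.9) and Rsad2 (36.6 and 5.24), all in B cells. The others in B cells ran from -2.34 for Ifit2 through Usp18, Isg15, Oasl2, Rtp4 and Irf7 to -1.46 for Bst2. The part of the interferon and immediate early differences in the Cirbp values was not tested.

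The genes with levels most like Cirbp over the 12 points of class and library were Pfdn5 (r = 0.95), Cenpa (0.92), Mynn (0.91), Eif3f (0.91) and A530088E08Rik (0.90). For Rbm3 they were Atp5d (0.97), Ube2m (0.96), Cox17 (0.95), Micos10 (0.94) and Krtcap2 (0.94). They were the top 5 of 6048 genes with at least 10 UMIs at every point. Neither cold gene was near the other: Rbm3 ranked 3524th for Cirbp, and Hsph1 3175th.

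Markers of other cell types were measured in each class; their source, free RNA, mixed droplets or the class itself, was not tested. In CD4 T cells the 6 B cell markers summed to 200 and 131 CPM and the 9 monocyte markers to 216 and 132, with 3 of 5 and 2 of 4 measured ones at least 1.5-fold lower and none of either list at 0. In B cells the 6 T cell markers summed to 88.9 and 57.5 CPM and the 9 monocyte markers to 402 and 161, also with none at 0. In NK cells the B cell markers were at 232 and 128, the T cell markers at 397 and 432, and the monocyte markers at 730 and 881, higher with Glutoborin (log2 0.27, 0.17 to 0.37). The monocyte markers summed to 933 and 881 CPM in CD8 T cells. Monocytes held more neutrophil transcripts with Glutoborin, 251 and 622 CPM over 9 markers, more plasma cell transcripts, 316 and 589 over 7, and fewer T cell transcripts, 339 and 174. The part of these in the Cirbp and Rbm3 values was not tested.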

How the data were processed

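CD45+ spleen cells were measured by the 10x Genomics 3' v3.1 chemistry, per the labels' protocols, 1 library per group. The deposited matrices hold raw UMI counts, neither scaled nor log-transformed; the file headers name Cell Ranger 6.1.2, while the submitters' processing notes list Cell Ranger 6.0.1, Seurat 4.3.0 and mm10. Barcodes with at least 300 genes, 500 UMIs and under 10% mitochondrial UMIs were kept, and doublets called per library by Scrublet (195 in Vehicle, 347 in Glutoborin) were left out. Both libraries were clustered together in scanpy 1.11.5 (2000 variable genes, without the genes and lists described here and without cell cycle, interferon-induced, antigen receptor, ribosomal and mitochondrial genes, 30 components, 15 neighbours, Leiden resolution 1.5). T cells were clustered again on their own. Clusters with mixed defining genes, or whose 10 leading genes held more markers of another class than their own, stayed unnamed. Counts were summed per class and library, and ratios carry the exact interval of a ratio of Poisson counts. The calculation was checked on counts simulated as Poisson, which cannot show how the intervals serve counts gathered in a few cells. Genes with at least 50 UMIs over both libraries counted as measured. TMM factors came from edgeR 4.0.16. Cirbp, Rbm3, Hspa1b, Hsph1 and the 5 genes most correlated with each of Cirbp and Rbm3 were always named; a list gene was named where it was 1.5-fold different in B or CD4 T cells, or among the 3 farthest bounds. The members, lists and tests were chosen with earlier results of these data known.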

Additional observations from a re-analysis of the deposited data

How the results depend on the processing

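Each ratio was recomputed under up to 15 alternatives to filters, doublets, resolution, classes from marker UMIs, scaling and weighting of cells, 3 of them chosen after seeing the data (UMIs per cell, a window of 2000 to 10000 UMIs per cell, and set-aside clusters kept). Cirbp stayed higher with Glutoborin in all 6 classes under every one of these, from 0.0538 to 1.397 (log2). Per cell it was 0.31 in B, 0.27 in CD4 T and 0.44 in NK cells. After thinning to 2000 UMIs it was 0.36 in CD8 T cells, 1.397 in NK cells and 0.0538 in monocytes. The shares of thinned cells with a Cirbp UMI, given above, are not among these ratios. Those shares kept no single direction in regulatory T cells and monocytes. Rbm3 reversed per cell in B (-0.0668), CD4 T (-0.14) and CD8 T cells (-0.0469), changed sign to -0.16 in regulatory T cells, was -0.59 in NK cells, and reversed after thinning in monocytes (-0.0432). It was 0.0278 in B cells by marker UMIs, 0.20 in CD8 T cells with TMM and 0.30 after thinning. In NK cells it was -0.0602 after thinning, -0.0815 with set-aside clusters kept and -0.0654 in the depth window, and in monocytes 0.0258 in that window. Hsph1 was -0.84 in CD4 T cells after thinning. Hspa1b in monocytes was -2.27 as a mean over cells, -1.50 after thinning, -3.75 without the 10 richest cells and -1.83 in the depth window. The cause of these shifts was not tested. No value was formed for Hspa1b in regulatory T and NK cells, or without its 10 richest cells in CD4 and CD8 T cells and after thinning in CD8 T cells, where counts were 0; classes from marker UMIs were not run for regulatory T cells, NK cells and monocytes. Single libraries cannot be left out, and no paired analysis was possible because each group has 1 library. Low counts limit Hspa1b, with at most 7 UMIs per library in CD4 and CD8 T cells.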

Other observations

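Cirbp in the classes too small to compare gave both directions. Plasmacytoid dendritic cells, the interferon-producing dendritic cells, had 93.7 CPM (60.0 to 139) in Vehicle and 194 (143 to 258) in Glutoborin, from 25 cells and 24 and 48 UMIs. Type 2 dendritic cells had 69.0 (53.5 to 87.6) and 81.5 (65.3 to 101), and type 1 dendritic cells 26.1 and 43.4, from 6 and 15 UMIs. Mature dendritic cells had 181 (124 to 256) and 84.9 (52.6 to 130). Red pulp macrophages had 41.3 and 53.1 from 6 and 8 UMIs, and plasma cells 36.3 and 27.8 from 7 and 15 UMIs.

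Rbm3 in the same classes was 703 and 608 CPM in plasmacytoid, 789 and 897 in type 2, 870 and 859 in type 1 and 482 and 542 in mature dendritic cells. It was 454 and 418 in red pulp macrophages and 342 and 396 in plasma cells.

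Barcodes at or over the mitochondrial limit, of which 1426 Vehicle and 331 Glutoborin had at least 300 genes, also had more Cirbp with Glutoborin: 84.7 CPM (72.4 to 98.4) and 144 (112 to 183), a log2 ratio of 0.77 (0.34 to 1.18). Their Rbm3 was at 336 and 342 (0.02, -0.23 to 0.28), well under the kept cells (704 and 723). The unnamed clusters together had Cirbp at 68.2 and 92.3 CPM (0.44, 0.30 to 0.58) and Rbm3 at 909 and 931.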
